A study of Mus musculus with 8 samples.

Results

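The p38 mitogen-activated protein kinase (MAPK) genes were followed in hematopoietic stem cells (HSCs) of Mitol KO and control mice. The group holds 9 of the 22065 named genes in the count table. They are the 4 p38 isoforms Mapk14 (p38α), Mapk11 (p38β), Mapk12 (p38γ) and Mapk13 (p38δ), the upstream kinases Map2k3 and Map2k6, the effector kinases Mapkapk2 and Mapkapk3, and the phosphatase gene Dusp1. Mapk11 was selected on its normalized counts in these same libraries, for its rise in Mitol KO HSCs, so its values are a description and carry no test. The other 8 genes were taken for their place in the pathway.

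MITOL, encoded by Marchf5, is a ubiquitin ligase of the mitochondrial outer membrane. The Mitol KO group was Mitol Flox/Flox; MX1-cre+ and the control group Mitol Flox/Flox; MX1-cre-, so both carried the floxed alleles, and both received Poly:IC, a double-stranded RNA mimic. MX1-cre is driven by an interferon-inducible promoter and recombines in hematopoietic cells, and in other cells that respond to interferon. Mice were C57BL/6 and 8 to 10 weeks old. Bone marrow HSCs were sorted as CD150+ CD48- EPCR+ Lineage- at 1 week after Poly:IC, and each library was made from 100 cells, with 4 libraries per group. The labels do not say that each library came from its own mouse, so p-values measure the spread between these libraries.

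Counts on named genes summed to between 7214935 and 12398138 per library. The total count of Marchf5 did not mark the deleted libraries, its log2 fold change being -0.15 (SE, the standard error, 0.13, edgeR adjusted p = 0.498). The paper describes a PCR check of the gene deletion in its mice. All 8 HSC markers checked were in the table, and 3 of them were lower in Mitol KO HSCs (among them Kit and Hlf). The summed normalized counts of these 8 markers were 23196 to 26859 in Mitol KO and 34736 to 42173 in control libraries. Red-cell markers summed to 1065 to 5016 in Mitol KO, highest in replicate 3 and next in replicate 4, against 468 to 909 in controls, and 1 of the 5 tested rose with edgeR (Hbb-bt, not called by DESeq2). Megakaryocyte markers summed to 3083 to 8022 against 3530 to 5179, highest in Mitol KO replicate 4, with Selp higher and Pf4 lower. Sums of neutrophil markers were 485 to 1023 against 405 to 616 (of 2 tested genes 0 passed with edgeR and limma-voom, against 1 at an unadjusted p under 0.05). Without that expression filter, DESeq2 called 1 neutrophil marker of the table higher and 1 lower. Those of B-cell markers (136 to 150 against 145 to 204), T-cell markers (189 to 259 against 172 to 200), macrophage markers (76.2 to 225 against 71.6 to 140) and the mast cell marker Cpa3 (7.32 to 13.8 against 11.3 to 21.1) were low in both groups, and 0 of their tested genes passed with edgeR, DESeq2 or limma-voom or had an unadjusted p under 0.05 with edgeR. In bulk RNA, fewer cells of a type and less RNA per cell cannot be told apart.

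p38 kinases are activated in stressed cells when the kinases MKK3 (Map2k3) and MKK6 (Map2k6) phosphorylate a threonine and a tyrosine in the activation loop. Active p38 phosphorylates MK2 (Mapkapk2) and MK3 (Mapkapk3), which act on RNA-binding proteins and so on the stability of short-lived mRNAs, and the phosphatase DUSP1 removes the activating phosphates. In HSCs, p38 is known for its activation by reactive oxygen species and for limiting self-renewal. RNA counts measure none of this phosphorylation.

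The 4 isoforms are separate genes with a common kinase fold, and the coding stretch around the activation loop shows how far they resemble each other. Each line gives 81 coding bases from the canonical GENCODE transcript on GRCm39, 5′ to 3′, with the codons of the dual-phosphorylation motif Thr-Gly-Tyr in capitals.
Mapk11: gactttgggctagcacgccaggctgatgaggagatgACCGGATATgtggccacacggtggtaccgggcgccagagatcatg
Mapk12: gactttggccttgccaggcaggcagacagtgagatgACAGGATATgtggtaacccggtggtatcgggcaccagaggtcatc
Mapk13: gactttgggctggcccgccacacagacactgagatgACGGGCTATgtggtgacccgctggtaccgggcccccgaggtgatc
Mapk14: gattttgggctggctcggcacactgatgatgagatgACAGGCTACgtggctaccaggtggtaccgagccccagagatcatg
The motif lies in exon 7 of each transcript, at chr15:89030069-89030077 on the minus strand for Mapk11, chr15:89018879-89018887 on the minus strand for Mapk12, chr17:28995318-28995326 on the plus strand for Mapk13 and chr17:28947373-28947381 on the plus strand for Mapk14. Within these 81 bases, Mapk11 shared 66 with Mapk14, 63 with Mapk12 and 61 with Mapk13. Over the aligned coding sequences, identity was highest for Mapk11 with Mapk14 (71.4%) and for Mapk12 with Mapk13 (71.0%), and lowest for Mapk13 with Mapk14 (66.5%). No pair shared an identical run longer than 20 bases, while reads were 75 bases long. No 75-base word of Mapk11, Mapk13 or Mapk14 transcripts occurred in another gene, and 2.39% of those of Mapk12 did.

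Mapk11 (p38β) had 106, 109, 121 and 227 normalized counts in Mitol KO replicates 1 to 4 and 27.7, 26.6, 42.4 and 26.9 in control replicates 1 to 4. Every Mitol KO library lay above every control library, and replicate 4 was the highest by a wide margin. The reads behind these values were 136, 105, 132 and 215 in Mitol KO and 21, 25, 45 and 30 in control libraries. The log2 fold change was 2.16 (SE 0.30), a 4.46-fold higher level, rank 39 from the top of 16444 tested genes. Without Mitol KO replicate 4 it was 1.85.

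Mapk14 (p38α), the isoform that mouse development requires, had 3470, 3369, 2853 and 2615 normalized counts in Mitol KO and 2977, 3141, 3157 and 3016 in control libraries. The groups overlapped, with a pair of Mitol KO libraries above and a pair below all controls. Its log2 fold change was -0.02 (SE 0.09, 95% interval -0.22 to 0.19, edgeR adjusted p = 0.932). Mapk12 (p38γ), best known from skeletal muscle, had 89.2, 121, 97.9 and 63.5 normalized counts in Mitol KO and 133, 160, 118 and 154 in control libraries. Mapk12 was below all controls in 3 of 4 Mitol KO libraries, and replicate 2 lay within the control range. This difference of -0.62 on the log2 scale (SE 0.21) did not pass the threshold of 0.05 (edgeR adjusted p = 0.0859, 2-sided exact permutation test p = 0.0571), also under the other settings (adjusted p = 0.054 to 0.12). Mapk13 (p38δ) had 26.6, 26.0, 43.0 and 39.1 normalized counts in Mitol KO and 31.7, 26.6, 35.8 and 35.0 in control libraries. These ranges overlapped, and at such low counts the 95% interval of the log2 fold change ran from -0.60 to 0.69 (edgeR adjusted p = 0.949).

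**Figure D1:**
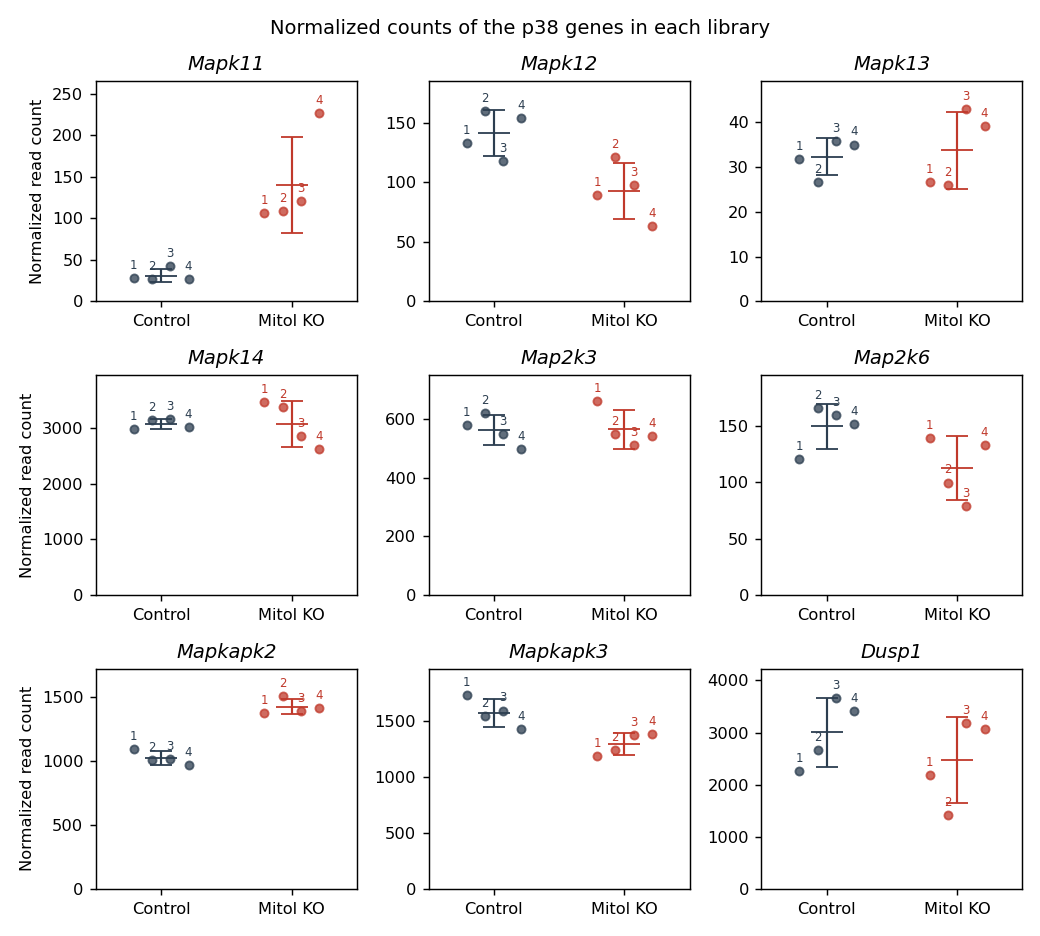
Normalized read counts (y axis, from 0) of the 9 p38 genes in 4 control and 4 Mitol KO libraries; points are libraries with their replicate number, and horizontal marks with bars are the mean ± SD. The groups are separate for Mapk11, Mapkapk2 and Mapkapk3, and overlap for the other genes.

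Levels between genes were compared as TPM, which are counts per kb of exon scaled to the same total in each library. In control HSCs, Mapk14 stood at 195 ± 25.1 TPM (SD, n = 4), Mapk12 at 9.85 ± 2.16, Mapk11 at 3.02 ± 0.82 and Mapk13 at 2.75 ± 0.60. In this order, the ranges of Mapk11 (2.32 to 4.16 TPM) and Mapk13 (2.22 to 3.45 TPM) overlapped, and the others were apart. In Mitol KO HSCs, the TPM were 178 ± 28.7 for Mapk14, 12.4 ± 4.72 for Mapk11, 5.89 ± 1.56 for Mapk12 and 2.59 ± 0.62 for Mapk13. Mapk11 (9.75 to 19.5 TPM) was thus above Mapk12 (3.87 to 7.65 TPM) in Mitol KO libraries, while in control libraries it was below. This order in Mitol KO depends on the length used. Per longest transcript, the ranges overlapped (10.2 to 20.5 TPM for Mapk11 and 5.97 to 11.7 TPM for Mapk12), and in Mitol KO replicate 2 Mapk11 was the lower, at 10.2 TPM against 11.7 TPM.

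Mapk11 made up 4.36%, 4.55%, 5.82% and 11.4% of the summed p38 isoform TPM in Mitol KO replicates 1 to 4, and 1.33%, 1.21%, 1.93% and 1.27% in controls. Mapk14 remained the main isoform, with 84.7% to 92.1% in Mitol KO and 92.2% to 92.9% in control libraries. The sum of the 4 isoforms was 199 ± 25.5 TPM in Mitol KO and 210 ± 27.6 TPM in control HSCs, with overlapping ranges (172 to 226 and 174 to 241 TPM). The log2 ratio of Mapk11 to Mapk12 normalized counts was 0.26, -0.14, 0.30 and 1.84 in Mitol KO and -2.27, -2.58, -1.47 and -2.51 in control libraries.

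**Figure D2:**
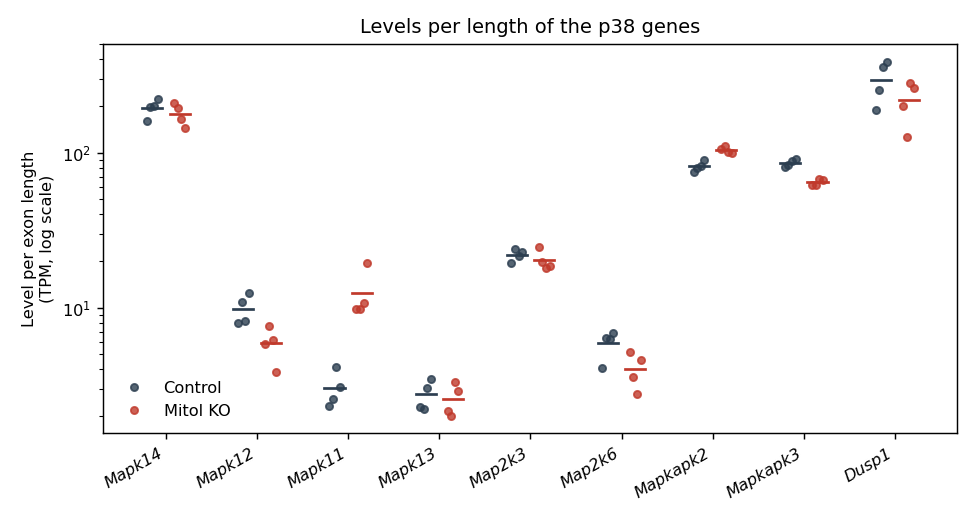
Levels per exon length (TPM, log scale) of the 9 p38 genes in control and Mitol KO libraries; points are libraries and lines are means (n = 4). Mapk14 and Dusp1 are the highest of the 9 genes in both groups, and Mapk11 lies at the level of Mapk13 in controls and above Mapk12 in Mitol KO on this scale, though not in Mitol KO replicate 2 when counts are divided by the longest transcript.

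For the upstream kinases, Map2k3 (MKK3) had 662, 548, 510 and 542 normalized counts in Mitol KO and 578, 620, 548 and 499 in control libraries. The groups overlapped, with a log2 fold change of -0.01 (SE 0.11, 95% interval -0.25 to 0.24, edgeR adjusted p = 0.979). Map2k6 (MKK6) had 139, 99.8, 78.7 and 133 normalized counts in Mitol KO and 121, 166, 160 and 152 in control libraries. Mitol KO replicates 2 and 3 were below all controls, and the log2 fold change of -0.43 (SE 0.21) did not pass (edgeR adjusted p = 0.207). Per length, Map2k3 was the higher of the pair in control HSCs, at 21.9 ± 1.94 TPM against 5.91 ± 1.26 TPM for Map2k6.

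The effector kinases differed in opposite directions, Mapkapk2 past the threshold with edgeR and Mapkapk3 not. Mapkapk2 (MK2), which phosphorylates the mRNA-decay factor tristetraprolin, had 1375, 1507, 1389 and 1410 normalized counts in Mitol KO and 1095, 1007, 1016 and 963 in control libraries. All 4 Mitol KO libraries were above all controls. Mapkapk2 rose by 0.46 on the log2 scale (SE 0.08, 1.38-fold, edgeR adjusted p = 0.00941, 2-sided exact permutation test p = 0.0286, the smallest this design allows). This call was kept whichever single library was removed (adjusted p = 0.00502 to 0.0384) and under the other settings (adjusted p = 5.6e-06 to 0.0148).

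Mapkapk3 (MK3), the closest relative of MK2, had 1186, 1234, 1368 and 1381 normalized counts in Mitol KO and 1726, 1538, 1590 and 1423 in control libraries. All 4 Mitol KO libraries were below all controls, though replicate 4 was close to control replicate 4. The log2 fold change of -0.30 (SE 0.09) did not pass with edgeR (adjusted p = 0.0634), passed with DESeq2 (adjusted p = 0.0426), and passed with edgeR without Mitol KO replicate 4 (adjusted p = 0.0457). The log2 ratio of Mapkapk2 to Mapkapk3 normalized counts was 0.21, 0.29, 0.02 and 0.03 in Mitol KO and -0.66, -0.61, -0.65 and -0.56 in control libraries. Per exon length, Mapkapk2 stood at 81.9 ± 6.14 TPM and Mapkapk3 at 85.8 ± 4.39 TPM in controls, and in Mitol KO HSCs they stood at 104 ± 5.02 TPM and 64.7 ± 3.20 TPM. Their ranges in controls overlapped on this scale, but not per longest transcript (75.6 to 87.0 TPM for Mapkapk2 and 109 to 118 TPM for Mapkapk3).

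Dusp1, an immediate early gene whose product dephosphorylates p38, had 2187, 1426, 3182 and 3072 normalized counts in Mitol KO and 2254, 2668, 3661 and 3419 in control libraries. The libraries of both groups were spread widely, and Mitol KO replicates 1 and 2 were below all controls. The log2 fold change was -0.30 (SE 0.23, edgeR adjusted p = 0.433). Other immediate early genes, which are also induced by cell dissociation, varied as widely. Fos, a subunit of AP-1, had 7144, 7137, 7716 and 11501 normalized counts in Mitol KO and 10285, 10161, 12051 and 5558 in control libraries, and it too overlapped. Its log2 fold change was -0.20 (edgeR adjusted p = 0.588), and the log2 fold changes of Jun, Egr1 and Ier2 were 0.30, -0.59 and -0.63 (adjusted p = 0.284, 0.114 and 0.109).

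Of the 8 members other than Mapk11, all passed the expression filter and 1 was called (12.5%), against 8.43% of all 16444 tested genes. Over all tested genes, 4.68% were called higher and 3.75% lower in Mitol KO. The groups did not overlap for 2 of these 8 members, Mapkapk2 and Mapkapk3, against 15.4% of all genes (8.17% higher and 7.18% lower in Mitol KO). The median log2 fold change of the 8 was -0.16, and that of all tested genes -0.02. With 8 genes, these shares do not set the members apart from other genes.

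The wider pathway was read from 3 lists that hold 60 genes, of which 57 were in the table and 56 tested. The count of called genes was 4 (7.14%), 3 higher and 1 lower, near the share of all genes, and the median log2 fold change was -0.01. The lists describe upstream activators and adaptors, substrates and effectors, and phosphatases. The count of 4 fell to 1 without Mitol KO replicate 1, 2 or 3 or control replicate 3, and to 0 without control replicate 2 or 4. Without Mitol KO replicate 4 it was 6.

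Of 26 tested activators and adaptors, 2 rose. With edgeR 0 fell, against 1 at an unadjusted p under 0.05 and 0 with DESeq2 and limma-voom. Gadd45g, which encodes a stress-induced activator of the p38 pathway kinase MEKK4, had 28.2, 52.0, 179 and 201 normalized counts in Mitol KO and 25.1, 25.5, 15.1 and 26.9 in control libraries. Its rise was large in Mitol KO replicates 3 and 4 and small in replicate 1, with a log2 fold change of 2.29 (SE 0.55, edgeR adjusted p = 0.0287). Replicates 3 and 4 were also those with the highest red-cell and megakaryocyte marker sums, and the part of these cells in the result was not tested. Without Mitol KO replicate 3 the log2 fold change of Gadd45g was 2.00 and the call was lost (adjusted p = 0.0732). The call was likewise lost without control replicate 2, 3 or 4 (adjusted p = 0.0704 to 0.0766). It was kept without Mitol KO replicate 4 (adjusted p = 0.0312). Txn1, which encodes thioredoxin, a redox protein that binds and inhibits the kinase ASK1, had 1025, 1045, 700 and 621 normalized counts in Mitol KO and 625, 541, 499 and 426 in control libraries. It rose by 0.68 on the log2 scale (SE 0.17, edgeR adjusted p = 0.0345), with Mitol KO replicate 4 just inside the control range. Txn1 is thus an inhibitor within a list of activators. The gene with the most counts in the list, the upstream kinase Taok1, stood at a log2 fold change of -0.01 (edgeR adjusted p = 0.929).

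Among 22 tested substrates and effectors, 1 rose and 1 fell. Rps6ka4 (MSK2), a nuclear kinase activated by p38 and ERK, had 396, 496, 385 and 336 normalized counts in Mitol KO and 276, 228, 304 and 226 in control libraries. The groups were separate, with a log2 fold change of 0.62 (SE 0.15, edgeR adjusted p = 0.0274). Eef2k, the kinase that inhibits translation elongation factor 2, had 2508, 2606, 2558 and 2838 normalized counts in Mitol KO and 3333, 3087, 3040 and 3349 in control libraries. It fell by 0.30 on the log2 scale (SE 0.08, edgeR adjusted p = 0.0357), also with separate groups. Zfp36l2, an mRNA-decay factor and the gene with the most counts in the list, had a log2 fold change of 0.02 (edgeR adjusted p = 0.876). Of the 8 tested p38 phosphatase genes other than Dusp1, 0 passed with edgeR, 0 had an unadjusted p under 0.05, and 0 passed with DESeq2 or limma-voom. Of the 8, 7 had a log2 fold change below 0 (median -0.18). Over all 16444 tested genes, 7841 were above 0 and the median was -0.02, and 8 genes are too few to set this list apart. Dusp2, with the most counts of them in controls, had 589 to 2137 normalized counts in Mitol KO and 1418 to 2907 in control libraries (log2 fold change -0.71, edgeR adjusted p = 0.221).

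In the neighbouring MAPK modules, 1 of 10 tested ERK and JNK genes rose (10.0%), against 8.43% of all tested genes called in either direction. Mapk6, which encodes the atypical kinase ERK3, rose by 0.41 on the log2 scale (SE 0.10, edgeR adjusted p = 0.0346), with 851 to 1076 normalized counts in Mitol KO against 652 to 801. Map2k2, the upstream kinase MEK2 and the gene with the most counts in the list, had 1518, 1595, 1547 and 1444 normalized counts in Mitol KO and 1469, 1220, 1144 and 1102 in control libraries. Of the Mitol KO libraries, 3 lay above all controls, and the log2 fold change of 0.29 (SE 0.10) did not pass with edgeR (adjusted p = 0.0859), but passed with DESeq2 (adjusted p = 0.0419). Among 10 tested ERK feedback genes, 1 fell (10.0%), which for so short a list is near the share of all genes. Dusp6, the phosphatase of ERK, had 764, 537, 693 and 507 normalized counts in Mitol KO and 1120, 940, 1180 and 945 in control libraries. The groups were separate, and the log2 fold change was -0.76 (SE 0.14, edgeR adjusted p = 0.0119). Spred1, a brake on ERK signalling and the gene with the most counts of these, had a log2 difference of -0.05 (edgeR adjusted p = 0.751).

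Of 20 tested immediate early genes, 2 were called (10.0%), near the 8.43% of all tested genes. Both fell, with overlapping groups. They were Fosb (log2 fold change -0.74, SE 0.21, edgeR adjusted p = 0.0476) and the transcription factor gene Klf6 (log2 fold change -0.55, SE 0.15, edgeR adjusted p = 0.0388). The median of the list was -0.06. DESeq2 called 3 genes of the list lower and limma-voom 1. Control replicate 4 was the lowest control library for Fos, Egr1 and Ier2 (5558, 5834 and 1465 normalized counts). Without it, Egr1 and Ier2 were called lower (edgeR adjusted p = 0.0321 and 0.0428), and Fos was not (adjusted p = 0.192). Of 14 mRNAs with AU-rich elements, a class that MK2 is known to stabilise, 5 were tested and 1 rose. This was Ptgs2 (cyclooxygenase 2), with 55.6, 138, 720 and 518 normalized counts in Mitol KO and 56.7, 129, 40.5 and 44.9 in control libraries. Ptgs2 was high in Mitol KO replicates 3 and 4, just above all controls in replicate 2, and within the control range in replicate 1 (log2 fold change 2.39, SE 0.67, edgeR adjusted p = 0.0454). As for Gadd45g, these are the libraries with the highest red-cell and megakaryocyte marker sums, whose part was not tested. Without Mitol KO replicate 3, Ptgs2 stood at 1.80 on the log2 scale and was not called (adjusted p = 0.122). Ptgs2 was also not called without Mitol KO replicate 2 or any 1 of the control libraries (adjusted p = 0.0517 to 0.126). It was called without Mitol KO replicate 4 (adjusted p = 0.0483). Ccl4, with the most counts of the tested ones in controls, overlapped between the groups (log2 fold change -0.32, adjusted p = 0.747).

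p38α is also known to drive purine synthesis through Mitf and Impdh2 in stressed HSCs. Of 9 tested genes of purine synthesis, 2 rose and the log2 fold change of all 9 was above 0, with a median of 0.34. Over all 16444 tested genes, 4.68% were called higher and 7841 had a log2 fold change above 0. The 9 genes belong to 1 pathway, the list as a whole was not tested, and neither was a part of p38 in these values. Impdh2, the enzyme that commits purines to guanine nucleotides, had 1910, 1923, 1604 and 1497 normalized counts in Mitol KO and 1234, 1264, 1349 and 1096 in control libraries. Its groups were separate (log2 fold change 0.47, SE 0.10, edgeR adjusted p = 0.0207). Paics, an enzyme of the de novo pathway, rose by 0.58 (SE 0.14, adjusted p = 0.0309), from 974 to 1241 normalized counts in controls to 1342 to 2172 in Mitol KO. Pfas, with the most counts of the 9, had a log2 fold change of 0.48 and did not pass (adjusted p = 0.113). Mitf itself had 211, 188, 210 and 298 normalized counts in Mitol KO and 261, 213, 282 and 298 in control libraries (log2 fold change -0.24, edgeR adjusted p = 0.41). Mitf was named after its values were seen.

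Many of these 11 list genes were close to the threshold. The number that lost the call was 8, 9, 7 and 0 without Mitol KO replicates 1 to 4 and 3, 10, 8 and 9 without control replicates 1 to 4, while Dusp6 kept it whichever library was removed.

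**Figure D3:**
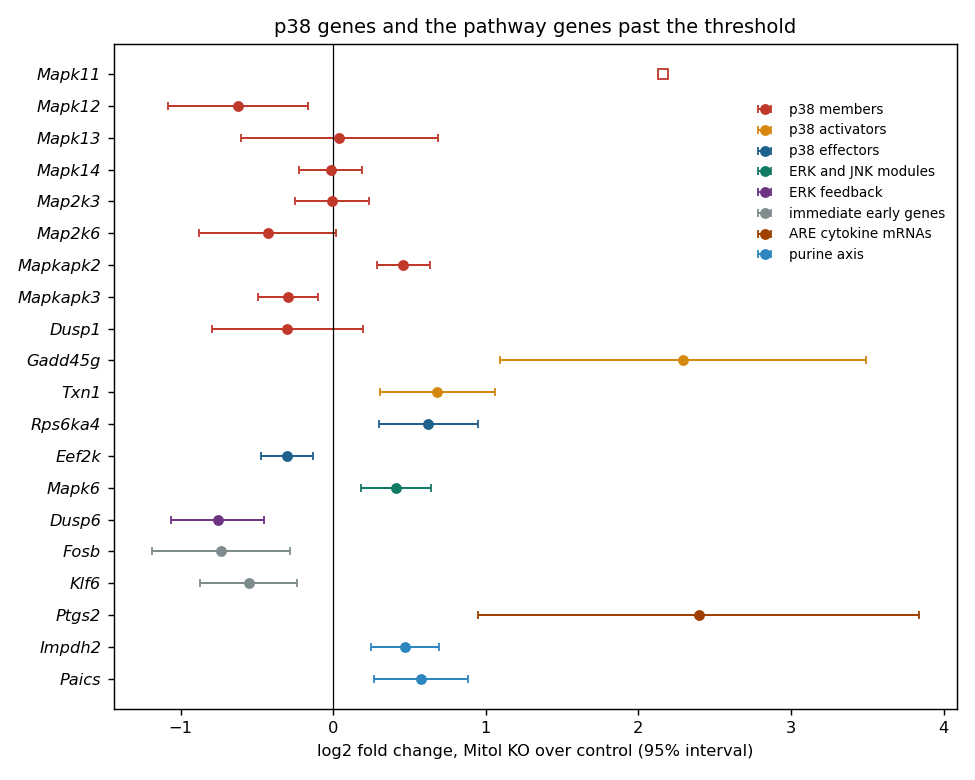
Log2 fold change (x axis, Mitol KO over control) of the 9 p38 genes and the 11 list genes past the threshold, coloured by list; points are edgeR estimates with 95% intervals. The open square marks Mapk11, shown without an interval because it was chosen for its value; of the other p38 genes, only Mapkapk2 passed the threshold with edgeR.

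Mapk11 and Mapk12 lie in a row on the minus strand of chromosome 15 of GRCm39, Mapk11 from 89026688 to 89033896 and Mapk12 from 89014785 to 89025011, 1676 bp apart. Mapk14 (chromosome 17, 28910268 to 28967381) and Mapk13 (chromosome 17, 28987747 to 28999207) form a second pair on the plus strand, 20365 bp apart. Of 9 other genes of the table within 100 kb of Mapk11, 2 passed, against 8.43% of all 16444 tested genes. With 9 genes, this count does not set the region apart from other genes. Plxnb2, the next gene upstream and a semaphorin receptor, had 2550, 2812, 2711 and 3157 normalized counts in Mitol KO and 1761, 1710, 1444 and 1513 in control libraries. The groups were separate (log2 fold change 0.79, SE 0.10, edgeR adjusted p = 0.00344). Dennd6b, beyond it, fell from 286 to 354 normalized counts in controls to 164 to 252 in Mitol KO (log2 fold change -0.68, SE 0.15, edgeR adjusted p = 0.0223). Hdac10, a deacetylase gene next to Mapk12, had a log2 difference of -0.06 (edgeR adjusted p = 0.747). Panx2 (-0.93), 1810021B22Rik (-0.88), Ppp6r2 (-0.21), Trabd (-0.05), Selenoo (-0.05) and Tubgcp6 (0.21) did not pass with edgeR.

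**Figure D4:**
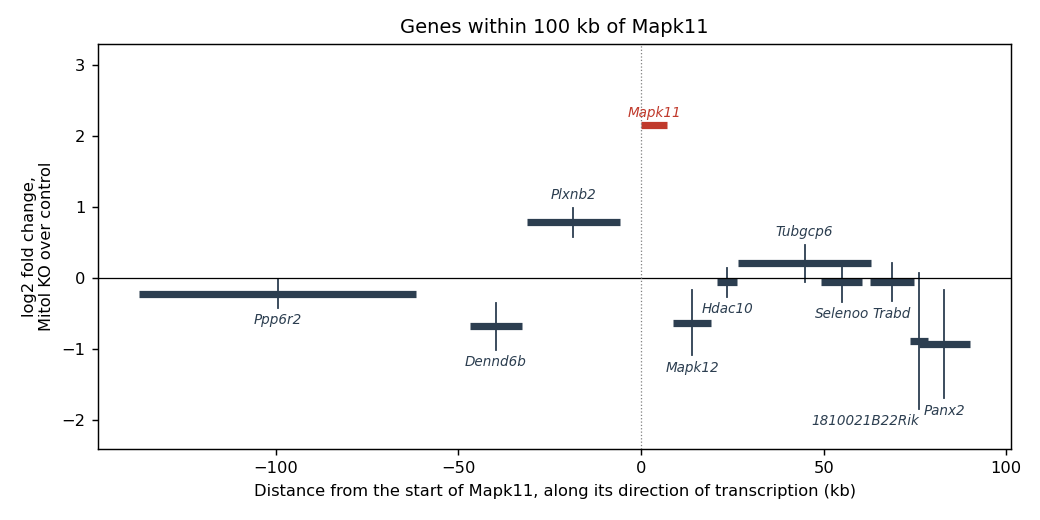
Log2 fold change (y axis, Mitol KO over control) of the genes within 100 kb of Mapk11 against the distance from its start in kb, along its direction of transcription; bars span each gene and vertical lines are 95% intervals, not drawn for Mapk11. Upstream of Mapk11, Plxnb2 lies above 0 and Dennd6b below 0. Mapk12, directly downstream, lies below 0 without passing the threshold (edgeR adjusted p = 0.0859).

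The upstream sequences of these adjacent genes are shown because their counts differed between the groups in opposite directions, Mapk12 without passing the threshold. Each line gives the 250 bases before the RefSeq start, 5′ to 3′ on the minus strand, with GC boxes (GGGCGG or CCGCCC, the binding motif of Sp1) in capitals. They were taken from the RefSeq table of GRCm38.p6 and placed by their exact match on GRCm39, at chr15:89033810-89034059 for Mapk11 and chr15:89024907-89025156 for Mapk12. In GENCODE the genes begin further upstream, at 89033896 for Mapk11 and 89025011 for Mapk12. The 3′ part of each window, with most of the marked GC boxes, thus lies within the gene in that annotation.
Mapk11: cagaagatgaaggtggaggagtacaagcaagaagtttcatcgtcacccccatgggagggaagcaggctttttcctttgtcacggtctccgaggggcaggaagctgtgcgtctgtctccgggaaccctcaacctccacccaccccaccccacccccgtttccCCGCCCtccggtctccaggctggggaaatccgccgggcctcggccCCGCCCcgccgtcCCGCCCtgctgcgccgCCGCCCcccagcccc
Mapk12: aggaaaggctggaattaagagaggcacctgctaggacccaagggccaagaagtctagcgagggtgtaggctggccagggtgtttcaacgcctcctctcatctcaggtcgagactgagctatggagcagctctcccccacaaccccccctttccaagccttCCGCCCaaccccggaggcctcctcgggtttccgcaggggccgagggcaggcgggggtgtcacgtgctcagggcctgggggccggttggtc
The Mapk11 window held 4 GC boxes and the Mapk12 window 1, and 32.7% of 32851 such windows in the table held at least 1. GC content was 68.0% for Mapk11 and 64.4% for Mapk12, against a median of 52.4%. The E box CACGTG was found once in the Mapk12 window and not in that of Mapk11, and in 6.02% of all windows. Neither window held the letters of the CRE (TGACGTCA, 1.55% of windows), the AP-1 motif (TGACTCA or TGAGTCA, 4.46%), the GATA motif (AGATAA or TTATCT, 9.99%) or a TATA box (TATAAA or TTTATA, 12.4%). The Dusp1 window held 3 GC boxes, 1 CRE and 1 E box. All motifs were searched on both strands, and all 9 members had a window.

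Among 12012 genes with at least 50 mean normalized counts, the 5 whose log2 CPM (counts scaled to the library size) followed Mapk11 most closely over the 8 libraries were Hs6st1 (Pearson's r = 0.984), Atrnl1 (0.972), Batf (0.971), Adgrl4 (0.967) and Sh3rf1 (0.966). These r include the difference between the groups that chose Mapk11 and are a description. Hs6st1, a heparan sulfate sulfotransferase gene, had 564, 564, 555 and 670 normalized counts in Mitol KO and 450, 417, 444 and 420 in control libraries, also highest in Mitol KO replicate 4. Atrnl1 was likewise highest there, at 747 normalized counts against 516 to 563 in the other Mitol KO libraries. Of the 7 other members that reached this minimum, which Mapk13 did not, Mapk12 had the most negative r with Mapk11 (-0.914). It kept a negative r of -0.867 for deviations from the group means, while Mapkapk2 had 0.912 over the libraries and -0.04 for the deviations. The other members ran from -0.684 (Mapk14) to 0.591 (Dusp1) for the deviations. Mapk11 was highest and Mapk12 lowest of its group in Mitol KO replicate 4 and control replicate 3, libraries that weigh heavily in this r.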

How the data were processed

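RNA-seq was performed by the authors on 8 libraries, with single-end reads of 75 bp. Per the labels and methods, they used STAR, samtools and subread on mm39 and deposited raw counts per gene. The annotation and the strand setting are not given in the sources used here. Antisense overlaps of the members spanned at most 3.29% of exonic bases (Mapk12). Of 23094 rows, 1029 without a symbol (0.335% to 0.467% of counts) were left out. Positions, exon lengths and coding sequences came from GENCODE vM39 on GRCm39, which matched 21524 genes.

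Counts were fitted in edgeR (version 4.0.16) by quasi-likelihood, with TMM scaling, its default expression filter, group as the sole term and Benjamini-Hochberg adjustment over 16444 genes, at an adjusted p-value under 0.05. The study used DESeq2. It was run here as an alternative (version 1.42.0), beside limma-voom (limma version 3.58.1), RLE normalization, no filter, a replicate block, unnamed rows in library sizes, and each library left out. Normalized counts are counts divided by DESeq2 size factors, and log2 CPM used a prior count of 2. Exact permutation tests were 2-sided over 70 arrangements. Fits were tested on simulated counts.

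The members and lists were chosen with earlier results of these data known. Genes named were the members, Marchf5, list genes past the threshold, the gene of each list with the most counts in controls, Fos, Jun, Egr1 and Ier2, genes within 100 kb of Mapk11, and the 5 most like it. Some genes are not reported here. No 2 libraries of the same group agreed within counting noise (chi-square per degree of freedom 6.15 to 26.9). Reads carried no molecular identifiers and do not count independent molecules.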

Additional observations from a re-analysis of the deposited data

Results flagged for a closer look

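Of 92 groups of 4 libraries checked, 6 had a library far from the other 3 by Dixon's test at the 95% level, which sets the gap to the nearest library against the group's whole range. Chance flags about 1 in 20 groups. Mapk11 and Hs6st1 were chosen on these same values, so their gaps are a description and not a test. Mapk11 was flagged in both groups, for Mitol KO replicate 4 (227 normalized counts, gap 0.881 of the range) and for control replicate 3 (42.4, gap 0.931). Fos (11501, gap 0.867) and Hs6st1 (670, gap 0.917) were flagged for the same Mitol KO replicate 4. Gadd45g was lowest in control replicate 3 (15.1, gap 0.841), and Taok1 in control replicate 1 (2126, gap 0.852).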

How the results depend on the processing

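Under every setting run, Mapkapk2, the 11 list genes past the threshold, Plxnb2 and Dennd6b kept their direction. Of the genes that did not pass, the log2 fold change of Ccl4 ran from -0.882 to 0.016 with 1 library left out, above 0 without Mitol KO replicate 1, and several near 0 also changed sign, among them Mapk13, Mapk14, Map2k3, Taok1, Zfp36l2, Trabd, Selenoo and Hdac10. All genes called numbered 1386, against 2315 with DESeq2 and 359 to 2501 with 1 library left out. Members other than Mapk11 called were 1, against 2 with DESeq2 and 1 to 2 with 1 library left out. The second was Mapkapk3, with -0.28 by DESeq2 and -0.34 to -0.24 with 1 library left out. Wider pathway genes called were 4, against 0 to 6 with 1 library left out and 3 to 5 under the other settings. Mapk11 stayed between 1.85 and 2.36. Scaled by the longest transcript instead of all exons, the control level was 15.03 TPM for Mapk12 and 229 TPM for Mapk14. Limma-voom lost the calls of Gadd45g, Klf6 and Ptgs2 (adjusted p up to 0.214). Fosb was lost with RLE normalization (adjusted p = 0.0505) and without the filter (0.0524), as was Eef2k without the filter (0.0558). The replicate numbers did not pair the libraries (correlations of deviations -0.07 to 0.08), and 2 of 4 Mitol KO libraries correlated best with the control of their own number. With the replicate block, 1652 genes were called in all, 1 of the members and 5 of the wider pathway, Ptgs2 was lost and Panx2 gained (adjusted p = 0.0383). Over all settings the median of all genes stayed between -0.02 and -0.01. Genes under about 50 counts, such as Mapk13, were measured too coarsely for small differences to be detectable.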
